A study of Mus musculus with 18 samples.

Results

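The comparison described here sets macrophages that received polyinosinic:polycytidylic acid (PIC) after tert-butylhydroquinone (TBHQ) against macrophages that received lipopolysaccharide (LPS) after TBHQ. Its members are the 3 samples labelled PIC + TBHQ and the 3 samples labelled LPS + TBHQ, 6 of the 18 samples of the series, and all genes of the count table were compared between them. The series has 6 groups of 3 samples: untreated control, TBHQ, LPS, PIC, LPS + TBHQ and PIC + TBHQ. Cells of the mouse macrophage line RAW 264.7 were seeded in 6-well plates and their RNA was sequenced. TBHQ is a phenolic antioxidant used as a food preservative, LPS is a component of the outer membrane of Gram-negative bacteria, and PIC is a synthetic double-stranded RNA.

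Cells of the LPS + TBHQ group were exposed to 5 µM TBHQ over 4 h and then to LPS at 0.1 µg/mL over 12 h. Cells of the PIC + TBHQ group were exposed to the same TBHQ treatment and then to PIC at 20 µg/mL over 12 h. Both groups therefore carry TBHQ, which had been dissolved in DMSO, and they differ in the stimulus, which was given at 1 concentration and 1 time each. The doses of the 2 stimuli are not on a common scale, so a gene that is higher with PIC is higher at these doses. The methods call the replicates biological replicates. They come from 1 established cell line, so the p-values measure the spread between these samples. Untreated cells (control) and the groups given LPS or PIC without TBHQ appear only where a value beside the 2 main groups is useful. For these groups the methods of the RNA sequencing describe no DMSO. Where groups with and without TBHQ are compared, TBHQ and its solvent therefore cannot be told apart.

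Poly(A) RNA was counted per gene as paired-end fragments. LPS + TBHQ samples held 16624933, 16487653 and 17533571 counts, and PIC + TBHQ samples held 16212079, 14934775 and 16906576. Levels are given as FPKM (fragments per kilobase of transcript, scaled to the library), as deposited by the authors. These FPKM carry 1 further constant per sample, which was 0.992 to 0.999 in LPS + TBHQ and 1.05 to 1.06 in PIC + TBHQ. Differences are given as log2FC, the log2 of the fold change of PIC + TBHQ over LPS + TBHQ, fitted to the counts in edgeR and shown as value ± SE, where the SE comes from the spread of log2 CPM (counts scaled to the library size) between the 3 samples of each group. A gene was called higher or lower where the false discovery rate (FDR), the p-value adjusted over all 13691 genes tested, was below 0.05.

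The macrophage label was checked against marker genes. The 10 macrophage markers summed to 6270 to 6720 FPKM in the 6 samples, with *Lyz2*, which encodes a lysozyme, as the most abundant at a mean of 4200 FPKM. Of these markers 9 were tested, and 5 were called higher and 1 lower in PIC + TBHQ. Over all genes tested 11.9% were higher and 8.39% lower. *Mertk* had too few counts for a test. The 6 T cell markers summed to 0 to 0.0299 FPKM, with *Cd3e*, *Cd3d*, *Cd3g*, *Cd8a* and *Cd2* at 0 in all 6 samples. The 5 B cell markers summed to 0.0826 to 0.354 FPKM, with *Ms4a1* and *Cd79b* at 0. Neutrophil markers summed to 2.03 to 4.69 FPKM, almost all of it *S100a8*, with *Ly6g* and *S100a9* at 0. Dendritic cell, mast cell, fibroblast and epithelial markers each summed to less than 1 FPKM in every sample, and 4 endothelial markers summed to 1.35 to 1.65 FPKM, led by *Vwf*. In bulk RNA, fewer cells in a given state and less RNA per cell cannot be told apart.

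As background, macrophages sense double-stranded RNA in endosomes through Toll-like receptor 3 and in the cytosol through the RIG-I-like receptors, and sense LPS at the cell surface through Toll-like receptor 4 with CD14 and MD-2. Both routes reach NF-κB, MAP kinases and interferon regulatory factors, and the interferon that is released acts back on the cells through JAK and STAT proteins to raise a large group of antiviral genes. TBHQ is known as an activator of the transcription factor NRF2, which raises genes of glutathione synthesis and of quinone and peroxide detoxification.

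PIC after TBHQ gave higher levels of antiviral genes, chemokines, cytokines and inflammatory enzymes than LPS after TBHQ, and lower levels of genes of DNA replication and mitosis. *Ccl5*, which encodes a chemokine for T cells and monocytes, was measured at 49.3, 57.7 and 55.6 FPKM after LPS + TBHQ and 358, 344 and 327 FPKM after PIC + TBHQ (log2FC 2.67 ± 0.08, FDR = 2.49e-28). *Mki67*, a marker of proliferating cells, was measured at 25.9, 26.2 and 25.3 FPKM after LPS + TBHQ and 15.8, 16.3 and 16.4 FPKM after PIC + TBHQ (log2FC −0.67 ± 0.02, FDR = 2.02e-14). The groups did not overlap in *Mki67*. Among the antioxidant genes that TBHQ is known for, *Gclm*, a subunit of the enzyme that starts glutathione synthesis, stood at 66.1, 67.6 and 70.3 FPKM after LPS + TBHQ and 64.4, 61.3 and 64.8 FPKM after PIC + TBHQ (log2FC −0.10 ± 0.04, FDR = 0.055), without overlap. It was called lower in 8 of 15 alternatives.

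Of the 13691 genes tested, 2772 (20.2%) were called, 1623 (11.9%) higher and 1149 (8.39%) lower in PIC + TBHQ. Most differences were small: the median log2FC was 0.25 among the genes called higher and −0.33 among those called lower, and the median over all genes tested was 0.01. Past a |log2FC| of 1 there were 141 genes called higher (1.03%) and 39 called lower (0.285%). With an FDR below 0.01 and a |log2FC| above 2 there were 34 higher and 0 lower. At an FDR below 0.05 the lowest log2FC of a called gene was −2.50. In 1572 of the 1623 genes called higher (96.9%) all 3 PIC + TBHQ samples lay above all 3 LPS + TBHQ samples, and in 1106 of the 1149 called lower (96.3%) all lay below. Over all genes tested, 2585 lay fully above and 2199 fully below, where chance gives 10% for both together with 3 samples against 3. The split between directions depends on the scaling. Scaling by total counts (total library size) rather than by the TMM factors of edgeR moved the median over all genes by −0.09, to −0.08, and gave 890 genes called higher and 2582 called lower, so the direction of small differences rests on the scaling.

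**Figure D1:**
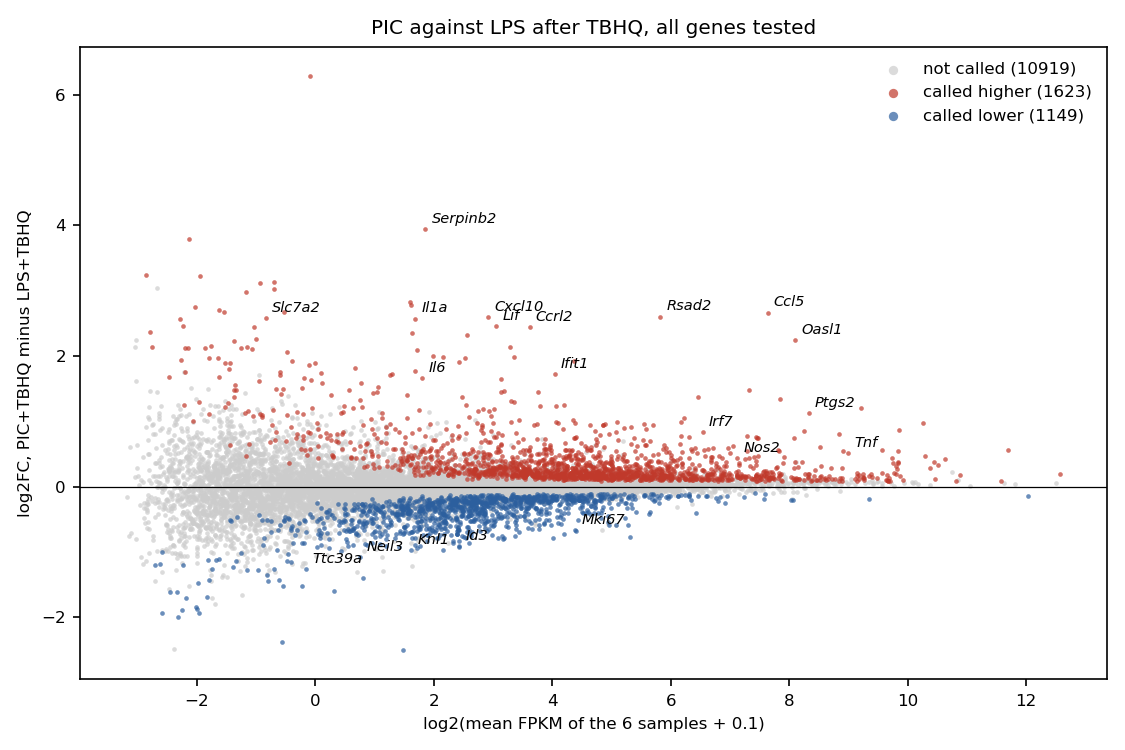
Each point is 1 of the 13691 genes tested. The horizontal axis is the log2 of the mean FPKM over the 6 samples plus 0.1, and the vertical axis is the log2FC of PIC + TBHQ over LPS + TBHQ. Red points were called higher and blue points lower at an FDR below 0.05, and grey points were not called.

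The gene with the largest difference among those with a mean of at least 50 counts and no overlap between the groups was *Serpinb2*, which encodes plasminogen activator inhibitor 2. It was measured at 0.382, 0.461 and 0.437 FPKM after LPS + TBHQ and 6.62, 6.71 and 6.5 FPKM after PIC + TBHQ (log2FC 3.95 ± 0.07, FDR = 1.55e-19), and at 0 in the control. *Il1a*, the cytokine interleukin-1 alpha, stood at 1.06, 0.701 and 0.924 FPKM with LPS against 5.14, 5.42 and 5.43 FPKM with PIC (log2FC 2.57 ± 0.16, FDR = 8.74e-13). *Lif*, a cytokine of the interleukin-6 type, stood at 2.83, 2.31 and 2.44 FPKM with LPS against 15, 13.4 and 13.2 FPKM with PIC (log2FC 2.46 ± 0.10, FDR = 3.15e-21). All 3 genes were low in every LPS + TBHQ sample and several-fold higher in every PIC + TBHQ sample. *Serpinb2* shares 10.4% of its transcript stretches of 50 bases with another gene, mostly the neighbouring *Serpinb10*.

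Further genes at this end were *Slc7a2*, *Ccrl2*, *Mir155hg* and *Edn1*. *Slc7a2*, a transporter of arginine and other cationic amino acids, had 0.138, 0.165 and 0.0936 FPKM with LPS against 0.784, 0.886 and 0.696 FPKM with PIC (log2FC 2.58 ± 0.24, FDR = 1.04e-11). *Ccrl2*, a receptor that binds chemerin, had 3.8, 3.78 and 3.77 FPKM with LPS against 21.6, 20 and 20 FPKM with PIC (log2FC 2.44 ± 0.04, FDR = 9.86e-24). The host transcript of the microRNA miR-155, *Mir155hg*, had 2.04, 2.1 and 1.63 FPKM with LPS against 10.2, 10.2 and 8.39 FPKM with PIC (log2FC 2.32 ± 0.14, FDR = 1.17e-14), and this microRNA is induced when macrophages are activated. *Edn1*, which encodes the vasoconstrictor peptide endothelin-1, had 1.03, 1.07 and 1.52 FPKM with LPS against 4.96, 5.59 and 4.95 FPKM with PIC (log2FC 2.09 ± 0.18, FDR = 2.01e-13).

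Most genes of double-stranded RNA recognition were higher with PIC, but the receptor for endosomal double-stranded RNA was not called. Of 17 genes, 13 were called higher, 0 lower and 4 not, beside 11.9% higher and 8.39% lower over all genes tested. The list's median log2FC was 0.23, and 1 member was lower with total library size. *Zbp1*, a sensor of Z-form nucleic acid that can trigger cell death, was measured at 7.13, 7.11 and 7.32 FPKM after LPS + TBHQ and 20.1, 19.7 and 19 FPKM after PIC + TBHQ (log2FC 1.45 ± 0.03, FDR = 5.53e-20). The groups did not overlap, and LPS + TBHQ samples lay only a little above the control mean of 4.93 FPKM. The cytosolic receptors *Ifih1* (MDA5) and *Ddx58* (RIG-I) went from 9.1 to 17.6 and from 20.7 to 32.2 mean FPKM (log2FC 0.96 and 0.64, both called). *Dhx58*, their regulator LGP2, had log2FC 0.75 ± 0.04, FDR = 1.79e-14. *Ikbke*, a kinase that phosphorylates interferon regulatory factors, was measured at 13.1, 13.2 and 12.5 FPKM with LPS against 18.4, 18.89 and 18 FPKM with PIC (log2FC 0.52 ± 0.03, FDR = 1.36e-10), while the related kinase *Tbk1* had log2FC 0.15 ± 0.04, FDR = 0.0098 (lost in 3 of 15 alternatives). *Trim25*, a ubiquitin ligase that activates RIG-I and the most abundant gene of the list, had 108, 106 and 104 FPKM with LPS against 141, 136 and 136 FPKM with PIC (log2FC 0.38 ± 0.02, FDR = 1.91e-12). *Tlr3* stood at 2.53, 2.12 and 2.35 FPKM with LPS against 2.59, 2.54 and 2.6 FPKM with PIC (log2FC 0.15 ± 0.07, FDR = 0.375), with values that did not overlap but were not called. The adaptors *Mavs* and *Traf3* and the transcription factor *Irf3* were not called.

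Genes of LPS recognition and of the MyD88 pathway had small differences by median. Of 19 tested, 7 were called higher, 1 lower and 11 not, beside 11.9% higher and 8.39% lower over all genes tested, with a median log2FC of 0.09 that fell to 0.01 with total library size. *Tlr4*, the LPS receptor, was measured at 17.5, 16.3 and 18.5 FPKM after LPS + TBHQ and 16.6, 16.9 and 16.4 FPKM after PIC + TBHQ (log2FC −0.07 ± 0.06, FDR = 0.514), and the groups overlapped. Its co-receptor *Cd14* was measured at 1167, 1189 and 1235 FPKM after LPS + TBHQ and 1497, 1427 and 1468 FPKM after PIC + TBHQ (log2FC 0.29 ± 0.03, FDR = 1.37e-08), without overlap. *Irak2*, a kinase downstream of MyD88, was the member with the highest value, 16.5, 14.7 and 16.5 FPKM with LPS against 23.2, 20.3 and 21 FPKM with PIC (log2FC 0.44 ± 0.08, FDR = 6.2e-08). *Ticam2*, an adaptor that joins the LPS receptor to the interferon arm, was the only member called lower, at 3.4, 3.04 and 2.71 FPKM with LPS against 2.21, 2.69 and 2.33 FPKM with PIC (log2FC −0.33 ± 0.12, FDR = 0.024), and it shares 14.6% of its stretches of 50 bases with other genes, mostly *Tmed7*. Its call was lost in 6 of 15 alternatives.

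Of 20 other pattern recognition receptors tested, 7 were called higher and 3 lower, beside 11.9% and 8.39% over all genes tested. With total library size 4 were higher and 3 lower, and the median log2FC of 0.05 changed sign to −0.03. *Clec4e*, which encodes Mincle, a receptor for mycobacterial glycolipid and dying cells, was measured at 82.8, 82 and 87.3 FPKM after LPS + TBHQ and 231, 241 and 232 FPKM after PIC + TBHQ (log2FC 1.49 ± 0.03, FDR = 2.06e-26). Its partner *Clec4d*, the most abundant of the list, had 325, 335 and 334 FPKM with LPS against 416, 415 and 409 FPKM with PIC (log2FC 0.32 ± 0.02, FDR = 7.76e-10). *Tlr2*, a receptor for bacterial lipoprotein, went from 31.4 to 49.1 mean FPKM (log2FC 0.65, called) and *Nod2*, a sensor of peptidoglycan fragments, from 3.4 to 5.31 (log2FC 0.64, called). *Tlr9*, the receptor for unmethylated CpG DNA, was lower, at 1.08, 1.11 and 0.754 FPKM with LPS against 0.599, 0.364 and 0.627 FPKM with PIC (log2FC −0.87 ± 0.29, FDR = 0.0045), and the DNA sensor *Cgas* went from 9.88 to 7.98 mean FPKM (log2FC −0.30, called).

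Interferon transcripts themselves were almost absent at this time. None of the 12 interferon genes looked at had enough counts for a test: *Ifnb1*, the first type I interferon made after stimulation, had 1, 2 and 2 counts after LPS + TBHQ and 3, 2 and 0 counts after PIC + TBHQ. The interferon alpha genes *Ifna1*, *Ifna2*, *Ifna4* and *Ifna5* had 0 counts in all 6 samples, and so had *Ifng*, although *Ifna1* and *Ifna5* share 67.4% and 52.2% of their stretches with other genes.

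Interferon receptor and JAK-STAT genes were higher in part. Of 22 tested, 14 were called higher, 0 lower and 8 not (median log2FC 0.20), beside 11.9% higher and 8.39% lower over all genes tested. Total library size gave 8 higher and 1 lower. *Irf7*, the interferon regulatory factor that amplifies type I interferon, was the most abundant, at 65.1, 68 and 66.8 FPKM after LPS + TBHQ and 124, 116 and 116 FPKM after PIC + TBHQ (log2FC 0.84 ± 0.04, FDR = 4.55e-19). Every PIC + TBHQ sample lay above every LPS + TBHQ sample, and the latter lay close to the control values of 61.1, 62.5 and 57.1 FPKM. *Stat2*, a transcription factor of the interferon response, went from 11.8 to 17.5 mean FPKM (log2FC 0.57, called), and *Usp18*, which removes ISG15 and dampens interferon signalling, from 49.2 to 71.2 (log2FC 0.54, called). *Socs3*, a feedback inhibitor of cytokine signalling, went from 24.3 to 43.2 mean FPKM beside 2.46 in the control (log2FC 0.83, called). *Tyk2*, a kinase of the interferon receptor, had the smallest called difference (log2FC 0.15 ± 0.04, FDR = 0.016), which was lost in 5 of 15 alternatives. *Cish*, another feedback inhibitor, rests on 4, 7 and 3 counts with LPS and 17, 14 and 25 with PIC (log2FC 2.12 ± 0.32, FDR = 8.41e-04). Of the receptor chains, *Ifnar1* and *Ifngr2* were called higher (log2FC 0.21 and 0.17) and *Ifnar2* and *Ifngr1* were not called.

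Antiviral interferon-stimulated genes gave the most uniform difference upwards. Of 51 tested, 47 were called higher, 1 lower and 3 not, with a median log2FC of 0.57, beside 11.9% higher and a median of 0.01 over all genes tested, and total library size left 47 higher. *Rsad2*, which encodes viperin, an enzyme that makes a chain-terminating nucleotide, was measured at 16.2, 15.6 and 16.3 FPKM after LPS + TBHQ and 101, 98.6 and 92.2 FPKM after PIC + TBHQ (log2FC 2.60 ± 0.04, FDR = 7.59e-28). *Ifit1*, a protein that binds viral RNA lacking the cap methylation of the host, was measured at 8.15, 7.18 and 7.51 FPKM after LPS + TBHQ and 24.5, 25.7 and 25.4 FPKM after PIC + TBHQ (log2FC 1.73 ± 0.06, FDR = 1.13e-19). *Isg15*, a ubiquitin-like modifier, was measured at 126, 126 and 137 FPKM after LPS + TBHQ and 333, 331 and 320 FPKM after PIC + TBHQ (log2FC 1.34 ± 0.04, FDR = 6.09e-21). In *Rsad2* and *Ifit1* the LPS + TBHQ samples lay below the control (23.6, 18.7 and 20.3 and 13.2, 10.7 and 9.43 FPKM) and the PIC + TBHQ samples above it, and in *Isg15* LPS + TBHQ was close to the control (109, 106 and 96.4 FPKM).

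*Oasl1*, an OAS-like protein that restrains the translation of *Irf7*, was abundant, at 94.8, 94 and 98 FPKM after LPS + TBHQ and 462, 451 and 438 FPKM after PIC + TBHQ (log2FC 2.24 ± 0.03, FDR = 1.52e-29). *Ifit3* had 4.18, 2.69 and 3.79 FPKM with LPS against 16.1, 17.6 and 13.4 FPKM with PIC (log2FC 2.14 ± 0.22, FDR = 8.43e-16) and *Ifit3b* had 1.64, 1.75 and 1.88 FPKM with LPS against 7.52, 7.21 and 6.14 FPKM with PIC (log2FC 1.98 ± 0.10, FDR = 4e-14). These 2 paralogs, which act with *Ifit1*, share 51.2% and 45% of their stretches of 50 bases with another gene, mostly with each other, so which of them the fragments came from is uncertain. *Cmpk2*, a mitochondrial nucleotide kinase next to *Rsad2*, went from 8.6 to 32.6 mean FPKM (log2FC 1.93), *Oasl2* from 2.24 to 8.35 (log2FC 1.90), *Isg20*, an exonuclease, from 4.8 to 13.2 (log2FC 1.46) and *Ifit2* from 5.86 to 14.37 (log2FC 1.29), all called. *Mx1*, a dynamin-like antiviral GTPase, had counts of 3, 1 and 1 with LPS and 18, 12 and 15 with PIC, at or under 3 counts in every LPS + TBHQ sample, so its difference (FDR = 2.48e-05) is only known to be upwards.

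*Ifitm3*, a membrane protein that blocks virus entry and the most abundant of the list, was measured at 1131, 1234 and 1268 FPKM with LPS against 1602, 1560 and 1565 FPKM with PIC (log2FC 0.38 ± 0.05, FDR = 2.86e-10), and *Bst2* (tetherin), which holds budding virus at the cell surface, went from 391 to 570 mean FPKM (log2FC 0.55, called). The oligoadenylate synthetases *Oas1a*, *Oas2* and *Oas3* had log2FC 0.37, 0.34 and 0.24, all called, and *Oas1a* shares 57.6% of its stretches with other genes, mostly *Oas1g*. *Slfn9*, a Schlafen gene, was the only member called lower, at 6.6, 6.81 and 7.08 FPKM with LPS against 4.59, 4.88 and 5.46 FPKM with PIC (log2FC −0.45 ± 0.08, FDR = 1.9e-05), and it shares 11.5% of its stretches with other genes, mostly *Slfn8*. Against the control, the list's median log2FC was −0.29 for LPS + TBHQ and 0.33 for PIC + TBHQ, 2 comparisons that share the control samples.

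Interferon-inducible GTPases, which attack membranes around intracellular pathogens, had 11 of 14 called higher, 1 lower and 2 not. Over all genes tested 11.9% were higher and 8.39% lower, and the list's median log2FC was 0.78. *Gbp5*, a guanylate-binding protein that promotes inflammasome assembly, was low in both groups, at 0.117, 0.0907 and 0.129 FPKM after LPS + TBHQ and 0.824, 1.07 and 0.874 FPKM after PIC + TBHQ (log2FC 3.02 ± 0.17, FDR = 1.8e-13). *Gbp2b* was measured at 1.02, 1.77 and 1.8 FPKM after LPS + TBHQ and 6.3, 7.38 and 4.81 FPKM after PIC + TBHQ (log2FC 2.00 ± 0.32, FDR = 6.96e-13). *Gbp2* and *Gbp3* went from 2.32 to 9.06 and from 4.11 to 16.1 mean FPKM (log2FC 1.97 and 1.98, both called). *Irgm1*, a regulator of autophagy of pathogens and the most abundant, had 15.9, 15.3 and 17.3 FPKM with LPS against 24.2, 23.5 and 23.8 FPKM with PIC (log2FC 0.56 ± 0.05, FDR = 2.58e-12). Only *Gbp8* was called lower, on 12, 19 and 10 counts with LPS and 4, 1 and 5 with PIC (log2FC −1.84 ± 0.44, FDR = 0.012, lost in 2 of 13 alternatives), and it shares 18.1% of its stretches with *Gbp4* and others. All 3 PIC + TBHQ samples lay above the LPS + TBHQ samples in *Irgm1* and below them in *Gbp8*.

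The CC chemokines attract monocytes and T cells. Of 10 tested, 6 were called higher, 0 lower and 4 not (median log2FC 0.77), beside 11.9% higher and 8.39% lower over all genes tested. *Ccl3* and *Ccl4*, the macrophage inflammatory proteins 1 alpha and beta, were the most abundant, at 2693, 2643 and 2717 FPKM with LPS against 4016, 3833 and 4021 FPKM with PIC (log2FC 0.56 ± 0.03, FDR = 1.44e-11) for *Ccl3* and 1079, 1033 and 1058 FPKM with LPS against 1486, 1431 and 1446 FPKM with PIC (log2FC 0.46 ± 0.03, FDR = 9.95e-09) for *Ccl4*. *Ccl2*, which recruits monocytes, had 679, 635 and 650 FPKM with LPS against 1180, 1189 and 1190 FPKM with PIC (log2FC 0.86 ± 0.03, FDR = 8.66e-19). Each of the 3 was several-fold above the control in both groups (control means 484, 301 and 83.8 FPKM) and higher in every PIC + TBHQ sample than in any LPS + TBHQ sample. *Ccl7*, a relative of *Ccl2*, went from 59 to 100 mean FPKM (log2FC 0.76, called), and *Ccl9* from 332 to 582 (log2FC 0.81, called). *Ccl12* had 0, 0.56 and 0.637 FPKM with LPS against 1.33, 0.655 and 0.929 FPKM with PIC and was not called (log2FC 1.26 ± 0.65, FDR = 0.147). *Ccl5* stands apart in this list, with means of 54.2 and 343 FPKM and a 6.34-fold difference.

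Among the CXC chemokines, 4 of 6 were called higher and 0 lower (median log2FC 1.02), beside 11.9% and 8.39% over all genes tested. *Cxcl10*, an interferon-induced chemokine for activated T cells, was measured at 2.04, 2.22 and 2.08 FPKM after LPS + TBHQ and 12.9, 13.5 and 12 FPKM after PIC + TBHQ (log2FC 2.60 ± 0.06, FDR = 4.68e-21). Its LPS + TBHQ samples lay below the control values of 3.99, 3.3 and 3.1 FPKM and its PIC + TBHQ samples above them. *Cxcl11*, of the same kind, had counts of 1, 1 and 5 with LPS and 16, 13 and 15 with PIC, so that only a direction can be given (FDR = 1.09e-04), and 41.7% of its exon bases lie under a gene of the opposite strand. *Cxcl2*, a neutrophil chemokine driven by NF-κB, was the most abundant and differed least among the called members, at 848, 791 and 777 FPKM with LPS against 995, 1035 and 1070 FPKM with PIC (log2FC 0.36 ± 0.05, FDR = 7.17e-05). *Cxcl3*, also a neutrophil chemokine, had 0.479, 0.361 and 0.277 FPKM with LPS against 1.28, 1.11 and 1.16 FPKM with PIC (log2FC 1.67 ± 0.22, FDR = 6.29e-06) and was at 0 in the control. *Cxcl16* and *Pf4* were not called (log2FC 0.19 and 0.20), and *Cxcl9* had 0 counts in all 6 samples.

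Cytokines and growth factors had 18 of 23 called higher, 0 lower and 5 not, beside 11.9% higher and 8.39% lower over all genes tested. The list's median log2FC was 1.00. *Tnf*, the tumour necrosis factor gene, was measured at 432, 406 and 423 FPKM after LPS + TBHQ and 607, 583 and 608 FPKM after PIC + TBHQ (log2FC 0.52 ± 0.03, FDR = 1.99e-12). *Il6* was measured at 1.97, 1.44 and 1.48 FPKM after LPS + TBHQ and 5.31, 5.77 and 4.44 FPKM after PIC + TBHQ (log2FC 1.67 ± 0.18, FDR = 1.91e-12), and *Il1b*, the inflammasome-processed interleukin-1 beta, at 6.27, 5.9 and 4.75 FPKM after LPS + TBHQ and 14, 13.7 and 14.1 FPKM after PIC + TBHQ (log2FC 1.31 ± 0.12, FDR = 1.64e-09). None of these 3 cytokines overlapped between the groups, and in both groups all were above the control means of 120, 0.466 and 0.0432 FPKM. *Csf3*, the granulocyte colony-stimulating factor and the most abundant of the list, had 742, 682 and 750 FPKM with LPS against 1011, 926 and 991 FPKM with PIC (log2FC 0.43 ± 0.06, FDR = 5.54e-07) beside a control mean of 3.4. Its call was lost under DESeq2 and both limma alternatives. *Il27*, a cytokine subunit that shapes T cell responses, went from 0.983 to 5.03 mean FPKM (log2FC 2.35, called), *Il1rn*, the antagonist of the interleukin-1 receptor, from 217 to 391 (log2FC 0.85, called) and *Csf1*, the macrophage growth factor, from 0.976 to 2.26 (log2FC 1.21, called).

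At the low end of this list the differences were smaller or rest on few counts. *Tnfsf9*, the ligand of the costimulator 4-1BB, had 24.9, 23.8 and 26.9 FPKM with LPS against 27.6, 28.6 and 33.9 FPKM with PIC (log2FC 0.26 ± 0.11, FDR = 0.015, lost in 4 of 15 alternatives), and *Tgfb1*, an anti-inflammatory cytokine, went from 59.4 to 71.4 mean FPKM (log2FC 0.27, called). *Inhba*, a subunit of activin, had counts of 1, 1 and 0 with LPS and 6, 6 and 8 with PIC, so that only a direction can be given (FDR = 0.0024, lost under limma on log2(FPKM + 1)). *Il10*, an anti-inflammatory cytokine, had 2, 2 and 5 counts with LPS and 1, 0 and 2 with PIC, and *Il12b*, a subunit of interleukins 12 and 23, had 0, 1 and 0 against 2, 2 and 1, too few for a test. *Il23a*, the other subunit of interleukin 23, was not called (log2FC 1.00 ± 0.76, FDR = 0.066), and neither were *Vegfa* and *Ebi3*.

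Cytokine and chemokine receptors had 14 of 32 called higher, 2 lower and 16 not, beside 11.9% higher and 8.39% lower over all genes tested. The list's median log2FC was 0.19, and 5 members were lower with total library size. *Tnfrsf1b*, the second TNF receptor and the most abundant, was measured at 132, 132 and 132 FPKM after LPS + TBHQ and 228, 218 and 217 FPKM after PIC + TBHQ (log2FC 0.74 ± 0.02, FDR = 1.89e-17), with LPS + TBHQ already far above the control mean of 12.4. *Il15ra*, which presents interleukin 15, went from 0.389 to 1.11 mean FPKM (log2FC 1.51, called), *Cd40*, a costimulatory receptor, from 5.7 to 9.18 (log2FC 0.69, called) and *Il10ra* from 2.98 to 4.89 (log2FC 0.71, called). *Cx3cr1*, the fractalkine receptor, was lower, at 0.982, 0.935 and 1.04 FPKM with LPS against 0.694, 0.578 and 0.553 FPKM with PIC (log2FC −0.69 ± 0.10, FDR = 0.003), and both groups were below the control values of 6.23, 5.63 and 7.01 FPKM. *Csf1r*, the receptor of the macrophage growth factor, was not called (log2FC −0.04 ± 0.04, FDR = 0.562).

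**Figure D2:**
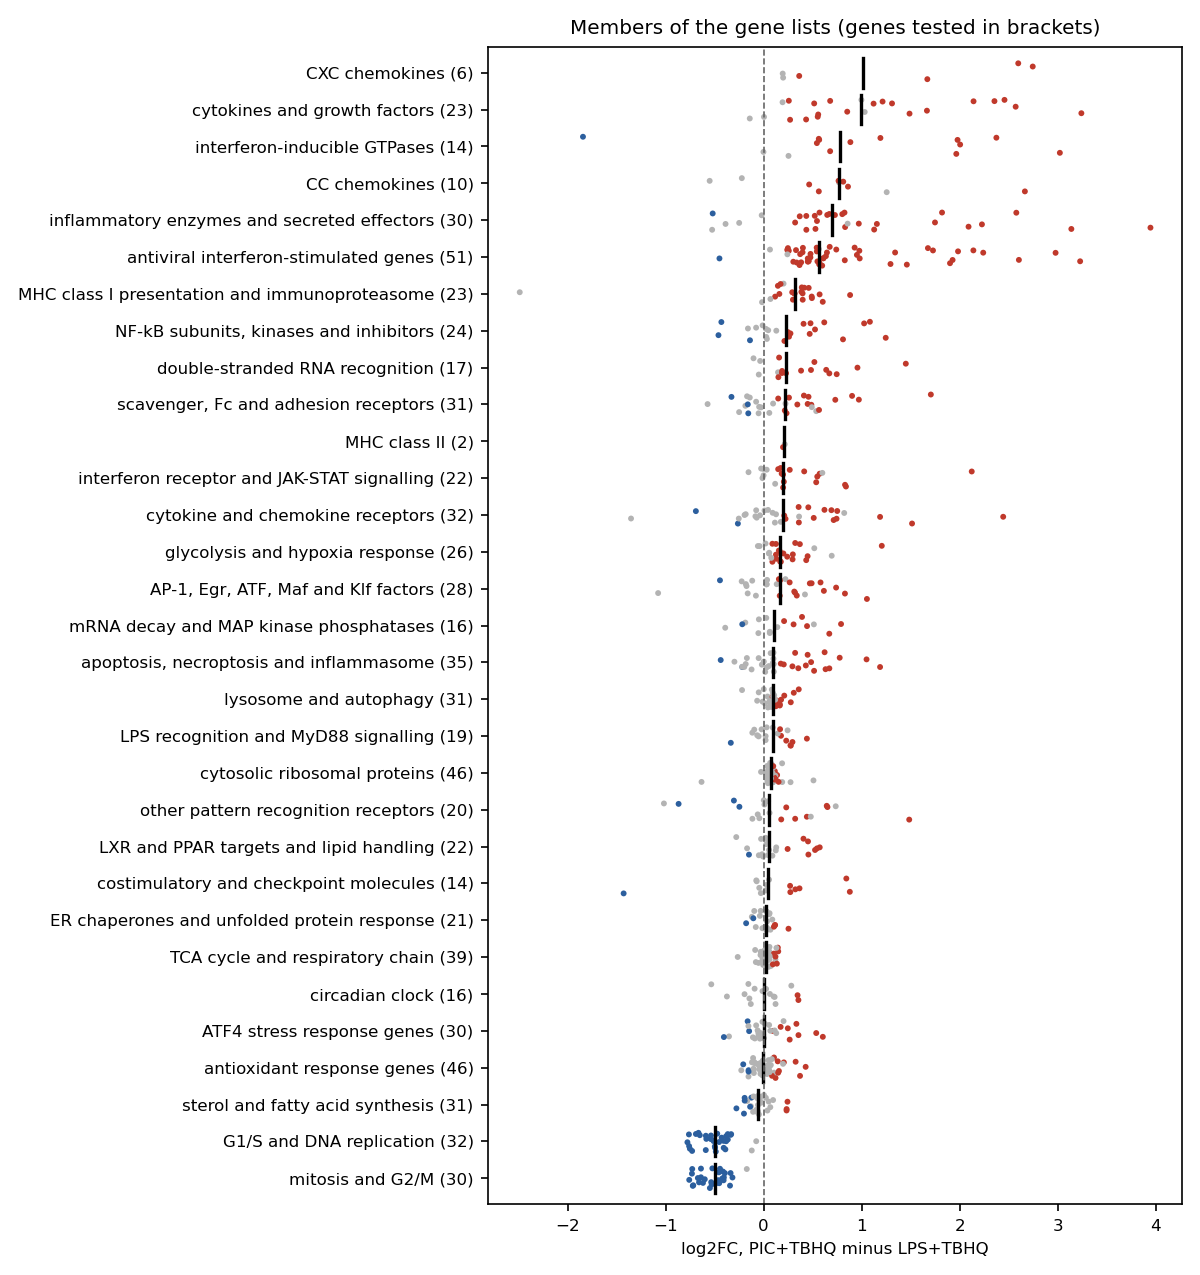
Each point is 1 tested member of a gene list, placed by its log2FC of PIC + TBHQ over LPS + TBHQ and coloured red where called higher, blue where called lower and grey where not called. Black bars mark the median of each list, the dashed line marks the median over all genes tested, and lists are ordered by their median.

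NF-κB subunits, kinases and inhibitors had 13 of 24 called higher, 3 lower and 8 not, beside 11.9% and 8.39% over all genes tested. The list's median log2FC was 0.23, and 5 members were lower with total library size. *Nfkbia*, the inhibitor IκBα and itself an NF-κB target, was the most abundant, at 104, 106 and 104 FPKM after LPS + TBHQ and 162, 156 and 163 FPKM after PIC + TBHQ (log2FC 0.62 ± 0.02, FDR = 1.19e-14). *Nfkb1*, the precursor of the p50 subunit, had 16, 15.8 and 15.4 FPKM with LPS against 21.9, 21.8 and 21.5 FPKM with PIC (log2FC 0.47 ± 0.02, FDR = 9.75e-12), and *Traf1*, an adaptor of TNF receptors, had 11.1, 10.8 and 10.6 FPKM with LPS against 25.9, 26.1 and 24.9 FPKM with PIC (log2FC 1.25 ± 0.03, FDR = 5.34e-22). Every PIC + TBHQ sample was above every LPS + TBHQ sample in these 3. *Nfkbie*, another inhibitor, went from 4.94 to 10.5 mean FPKM (log2FC 1.08), *Tnfaip3* (A20), a deubiquitinase that ends the signal, from 13.4 to 27.1 (log2FC 1.03) and *Nfkb2* from 22.5 to 39.4 (log2FC 0.81), all called. *Rel*, *Nfkbiz* and *Ikbkb* were not called. *Map3k8*, the kinase TPL2 that links NF-κB to ERK, was lower, at 3.57, 3.53 and 4.05 FPKM with LPS against 2.89, 2.55 and 2.64 FPKM with PIC (log2FC −0.46 ± 0.08, FDR = 0.001), and so was *Nfkbid*, an atypical inhibitor, from 20.3 to 15 mean FPKM (log2FC −0.43, called).

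Genes of mRNA decay and MAP kinase phosphatases had 6 of 16 called higher, 1 lower and 9 not. Beside these stood 11.9% higher and 8.39% lower over all genes tested. The list's median log2FC of 0.10 was 0.02 with total library size, which gave 3 lower. *Dusp5*, a phosphatase of ERK, had 21.7, 19.4 and 20.4 FPKM with LPS against 36, 36.7 and 33.5 FPKM with PIC (log2FC 0.79 ± 0.06, FDR = 2.53e-13), and *Dusp4*, the most abundant, had 101, 99.2 and 97.8 FPKM with LPS against 123, 121 and 124 FPKM with PIC (log2FC 0.31 ± 0.02, FDR = 1e-07). *Dusp1*, a phosphatase of p38 and JNK, went from 17.3 to 27.5 mean FPKM (log2FC 0.67, called), and *Zfp36* (tristetraprolin), which sends cytokine mRNA to decay, from 36.6 to 49.6 (log2FC 0.44, called). *Zc3h12a* (Regnase-1), an endonuclease for cytokine mRNA, was the 1 member called lower, at 25, 23.6 and 26 FPKM with LPS against 22.1, 21.4 and 20.5 FPKM with PIC (log2FC −0.22 ± 0.05, FDR = 0.0054). *Zfp36* and *Zc3h12a* thus differed in opposite directions.

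Of the AP-1, Egr, ATF, Maf and Klf factors, 14 of 28 were called higher, 1 lower and 13 not (median log2FC 0.17). Over all genes tested 11.9% were higher and 8.39% lower. With total library size the 28 factors were 9 higher and 5 lower. *Egr2*, a zinc finger factor of activated macrophages, had 1.55, 0.921 and 1.59 FPKM with LPS against 2.62, 3.25 and 2.59 FPKM with PIC (log2FC 1.05 ± 0.27, FDR = 9.06e-06). *Ier3*, an immediate early gene and the most abundant of the list, had 294, 276 and 299 FPKM with LPS against 451, 424 and 452 FPKM with PIC (log2FC 0.61 ± 0.05, FDR = 1.94e-13). *Cebpb*, a factor for inflammatory genes, went from 79.2 to 118 mean FPKM (log2FC 0.58, called), *Junb* from 94.1 to 130 (log2FC 0.47, called) and *Atf3*, which restrains inflammatory transcription, from 145 to 180 (log2FC 0.31, called). *Fos*, *Egr1* and *Myc* were not called. *Cebpa*, a factor of myeloid differentiation, was called lower at 2.93, 2.33 and 3.27 FPKM with LPS against 1.88, 2.46 and 1.94 FPKM with PIC (log2FC −0.45 ± 0.18, FDR = 0.034), although 1 sample of each group overlapped, and the call was lost in 6 of 15 alternatives.

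Inflammatory enzymes and secreted effectors had 24 of 30 called higher, 1 lower and 5 not, beside 11.9% and 8.39% over all genes tested. The list's median log2FC was 0.70. *Ptgs2* (COX-2), the inducible enzyme of prostaglandin synthesis, was measured at 215, 194 and 199 FPKM after LPS + TBHQ and 438, 437 and 449 FPKM after PIC + TBHQ (log2FC 1.13 ± 0.05, FDR = 7.68e-20). *Nos2*, the inducible nitric oxide synthase, was measured at 126, 112 and 117 FPKM after LPS + TBHQ and 168, 156 and 155 FPKM after PIC + TBHQ (log2FC 0.44 ± 0.06, FDR = 2.47e-09). *Acod1*, which makes itaconate and was the most abundant of the list, was measured at 838, 819 and 829 FPKM after LPS + TBHQ and 1651, 1616 and 1595 FPKM after PIC + TBHQ (log2FC 0.97 ± 0.02, FDR = 3.52e-16). In each of these enzymes the groups were apart and both lay above the control means of 17, 32 and 53.8 FPKM. The prostaglandin E synthase *Ptges*, which acts after COX-2, went from 4.13 to 7.32 mean FPKM (log2FC 0.82, called), while the constitutive *Ptgs1* was not called (log2FC −0.53 ± 0.40, FDR = 0.216).

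Arginine is the substrate of *Nos2*, and 3 genes around it are given here, all called higher. *Ass1*, which regenerates arginine from citrulline, went from 0.866 to 1.5 mean FPKM (log2FC 0.80, called, with 38.6% of its stretches shared), and *Gch1*, which makes the cofactor of nitric oxide synthase, from 14.9 to 19.1 (log2FC 0.37, called). *Odc1*, the first enzyme of polyamine synthesis, was measured at 750, 721 and 758 FPKM with LPS against 1090, 1070 and 1083 FPKM with PIC (log2FC 0.54 ± 0.02, FDR = 8.72e-10), and 24.3% of its stretches of 50 bases are found in other genes.

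Several matrix proteases are members of the same list. *Mmp9*, a gelatinase, was measured at 56.5, 54.4 and 55.9 FPKM with LPS against 71.3, 69 and 67.7 FPKM with PIC (log2FC 0.32 ± 0.03, FDR = 1.6e-07). *Mmp12*, the macrophage elastase, had 2.02, 1.81 and 1.72 FPKM with LPS against 3.52, 3.26 and 3.08 FPKM with PIC (log2FC 0.83 ± 0.09, FDR = 1.01e-06). *Mmp14* went from 0.656 to 2.32 mean FPKM (log2FC 1.82), *Mmp13* from 0.103 to 0.931 (log2FC 3.14) and *Plaur*, the urokinase receptor, from 55.8 to 87.3 (log2FC 0.65), all called. *Lcn2*, a protein that binds bacterial siderophores, went from 61 to 82.2 (log2FC 0.44, called), and *C3*, the central complement component, from 2.14 to 3.39 (log2FC 0.67, called). *Cp*, the copper protein ceruloplasmin, was the only member of the list called lower, at 0.813, 0.73 and 0.566 FPKM with LPS against 0.551, 0.456 and 0.456 FPKM with PIC (log2FC −0.52 ± 0.18, FDR = 0.011). That call was lost in 2 of 15 alternatives.

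**Figure D3:**
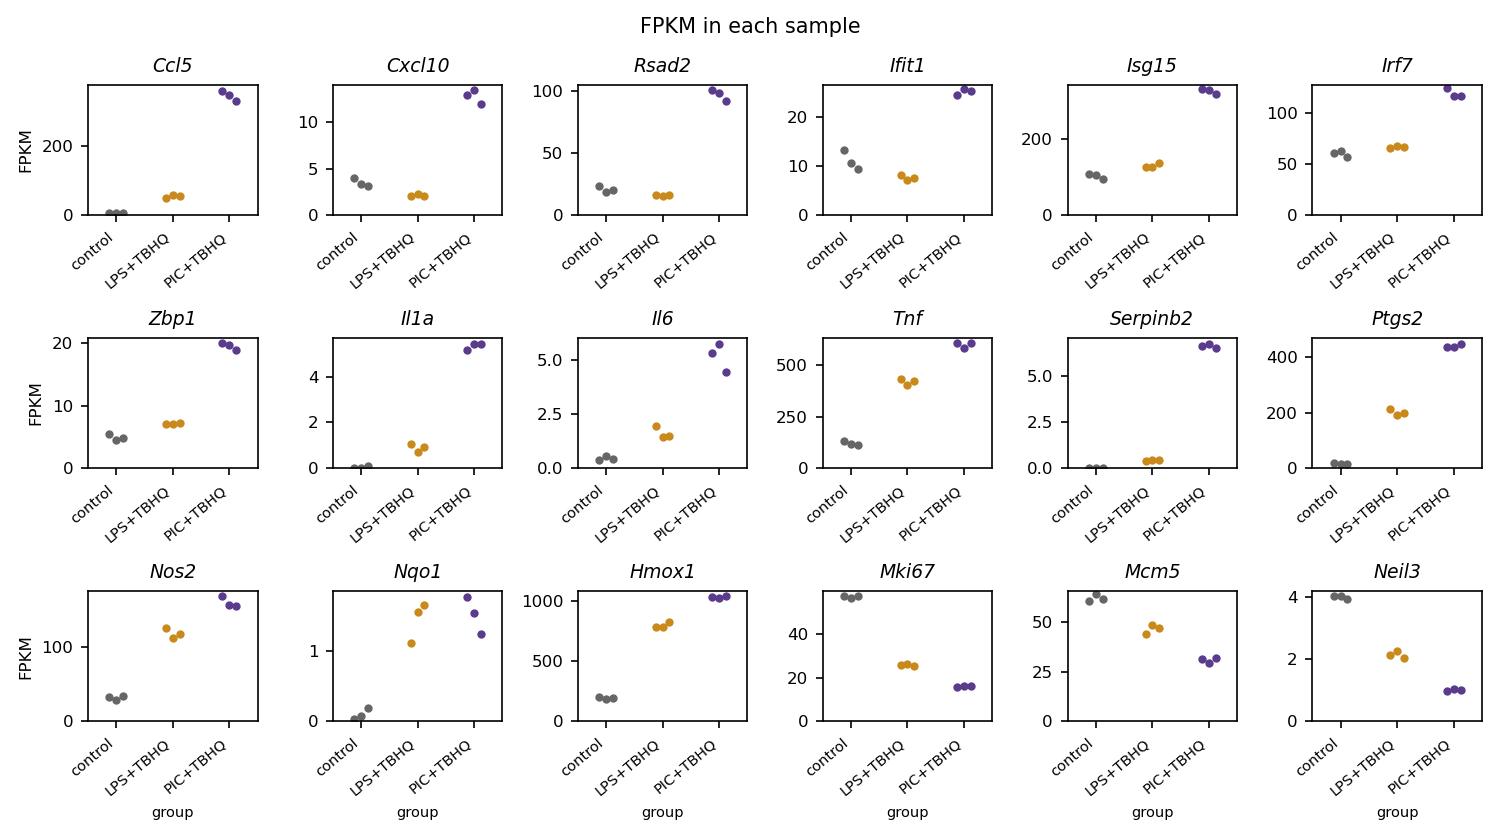
FPKM in each sample of the control, LPS + TBHQ and PIC + TBHQ for 18 genes. Each point is 1 sample, and every panel has its own vertical axis that starts at 0.

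Antioxidant response genes, the group that TBHQ itself is known to raise, were called in both directions. Of 46 tested, 10 were called higher, 3 lower and 33 not, with a median log2FC of 0.00, beside 11.9% higher and 8.39% lower over all genes tested, and with total library size 4 were higher and 13 lower, at a median of −0.09. *Hmox1*, the heme oxygenase gene, was measured at 785, 784 and 826 FPKM after LPS + TBHQ and 1034, 1019 and 1038 FPKM after PIC + TBHQ (log2FC 0.37 ± 0.03, FDR = 1.39e-10). *Prdx1*, a peroxidase, was measured at 1342, 1337 and 1371 FPKM after LPS + TBHQ and 1817, 1801 and 1822 FPKM after PIC + TBHQ (log2FC 0.43 ± 0.01, FDR = 1.29e-13). *Slc7a11*, the cystine importer, was measured at 68.8, 66.8 and 67.3 FPKM after LPS + TBHQ and 71.8, 72.9 and 73.2 FPKM after PIC + TBHQ (log2FC 0.11 ± 0.01, FDR = 0.028). In these 3 genes the groups did not overlap, but the difference in *Slc7a11*, whose call was lost in 9 of 15 alternatives, was small beside its distance from the control mean of 9.5 FPKM. *Nqo1*, a quinone reductase, had 1.12, 1.55 and 1.65 FPKM with LPS against 1.76, 1.54 and 1.24 FPKM with PIC (log2FC 0.07 ± 0.22, FDR = 0.905), with overlap, and the control held 0.042, 0.079 and 0.191.

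*Gclc*, the catalytic subunit of glutathione synthesis, was called lower, from 30.7 to 27.6 mean FPKM (log2FC −0.15), as were *Cat*, catalase, from 158 to 142 (log2FC −0.15), and *Gsto1*, a glutathione transferase, at 23.3, 22.4 and 21.6 FPKM with LPS against 19, 20.1 and 19 FPKM with PIC (log2FC −0.21 ± 0.04, FDR = 0.019, lost in 3 of 15 alternatives). *Srxn1*, *Txnrd1* and *Sqstm1*, known NRF2 targets for peroxiredoxin repair, thioredoxin reduction and selective autophagy, were called higher (log2FC 0.16, 0.14 and 0.33). *Cbr3*, a carbonyl reductase, had 16.8, 16.4 and 18.91 FPKM with LPS against 17, 15.6 and 16 FPKM with PIC (log2FC −0.10 ± 0.07, FDR = 0.501), and *Adh7*, an alcohol dehydrogenase, had 4.89, 5.02 and 5 FPKM with LPS against 4.45, 4.65 and 4.28 FPKM with PIC (log2FC −0.15 ± 0.03, FDR = 0.326). *Gstp3* had 1.45, 2.12 and 1.44 FPKM with LPS against 2.01, 1.4 and 1.44 FPKM with PIC (log2FC −0.04 ± 0.23, FDR = 0.949), and *Gstp1* had 5.41, 5.83 and 5.38 FPKM with LPS against 4.25, 5.64 and 4.31 FPKM with PIC (log2FC −0.23 ± 0.13, FDR = 0.419), of whose stretches 33.7% occur in other genes, mostly *Gstp2*. *G6pdx*, the entry enzyme of the pentose phosphate pathway, had 233, 227 and 242 FPKM with LPS against 245, 239 and 239 FPKM with PIC (log2FC 0.05 ± 0.03, FDR = 0.335). None of these 5 genes was called. *Ftl1*, ferritin light chain and the most abundant of the list, had 3053, 3013 and 3282 FPKM with LPS against 3271, 3099 and 3336 FPKM with PIC (log2FC 0.06 ± 0.05, FDR = 0.407), and 50.9% of its stretches occur elsewhere. *Gsta3* had 10, 7 and 12 counts with LPS and 6, 15 and 9 with PIC, too few for a test.

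Stress genes under ATF4 had 8 of 30 called higher, 3 lower and 19 not, beside 11.9% higher and 8.39% lower over all genes tested, with a median log2FC of 0.00. Total library size turned this to 5 higher and 12 lower, at a median of −0.09. *Atf4* itself had 187, 181 and 190 FPKM with LPS against 200, 195 and 198 FPKM with PIC (log2FC 0.09 ± 0.02, FDR = 0.038, lost in 8 of 15 alternatives), and *Chac1*, a glutathione-degrading enzyme that it controls, had 21, 20 and 21.1 FPKM with LPS against 21.9, 21.5 and 21.6 FPKM with PIC and was not called (log2FC 0.07 ± 0.03, FDR = 0.53). *Ddit4*, an inhibitor of mTORC1, had 8.79, 7.79 and 7.24 FPKM with LPS against 12.2, 13.3 and 10.7 FPKM with PIC (log2FC 0.60 ± 0.12, FDR = 8.97e-06), and *Sesn1*, a stress protein that is also a p53 target, had 5.21, 5.34 and 5.21 FPKM with LPS against 3.88, 4.12 and 3.88 FPKM with PIC (log2FC −0.41 ± 0.03, FDR = 9.16e-04). The amino acid synthesis genes *Asns* and *Psat1* were not called. ER chaperones and genes of the unfolded protein response had 4 of 21 called higher, 2 lower and 15 not, beside the same 11.9% and 8.39%. With total library size the balance turned, to 1 higher and 9 lower. *Hspa5* (BiP), the main ER chaperone, was the same in both groups, at 872, 870 and 880 FPKM with LPS against 862, 886 and 875 FPKM with PIC (log2FC 0.00 ± 0.01, FDR = 0.938), a value that turned to −0.08 and was called with total library size. *Ern1* (IRE1), a sensor of unfolded protein, had log2FC 0.25 ± 0.07, FDR = 4.74e-04, and *Sel1l*, a part of the ER degradation complex, had log2FC −0.18 ± 0.02, FDR = 4.41e-04.

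Genes of MHC class I presentation, which interferon raises, had 19 of 23 called higher, 0 lower and 4 not (median log2FC 0.32). Over all genes tested 11.9% were higher and 8.39% lower, and total library size left 15 of the 23 higher. *B2m*, the light chain shared by class I molecules, was measured at 776, 812 and 790 FPKM after LPS + TBHQ and 938, 1028 and 989 FPKM after PIC + TBHQ (log2FC 0.32 ± 0.04, FDR = 7.18e-09). *Tap1*, a peptide transporter, went from 8.38 to 11.5 mean FPKM (log2FC 0.46), *Tapbp* (tapasin), which loads peptides, from 65.5 to 97.1 (log2FC 0.57), *Psmb10*, an immunoproteasome subunit, from 23.2 to 35.2 (log2FC 0.60) and the class I gene *H2-K1* from 21.4 to 27.9 (log2FC 0.39), all called. *Calr*, a chaperone of class I assembly, had the smallest called difference (log2FC 0.12 ± 0.02, FDR = 0.0033), which was lost with total library size. *H2-Q6* had the largest, at 1, 1.53 and 1.34 FPKM with LPS against 2.72, 2.9 and 1.55 FPKM with PIC (log2FC 0.88 ± 0.33, FDR = 0.0094), but 32% of its stretches occur in other class I genes, mostly *H2-Q7*, and its call was lost in 5 of 15 alternatives. Of the class II list, 2 of 9 genes were tested. *Cd74*, the invariant chain, had 74.5, 70.3 and 74.4 FPKM with LPS against 88.1, 78.1 and 84.5 FPKM with PIC (log2FC 0.20 ± 0.06, FDR = 0.0017, lost with total library size), and *H2-Aa* had 0 counts in all 6 samples.

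Costimulatory and checkpoint molecules had 6 of 14 called higher, 1 lower and 7 not, beside 11.9% higher and 8.39% lower over all genes tested, and the median log2FC of 0.04 changed sign to −0.04 with total library size. *Cd274* (PD-L1), a ligand that restrains T cells, was measured at 12.9, 11.8 and 13.4 FPKM after LPS + TBHQ and 23.7, 23.6 and 22.7 FPKM after PIC + TBHQ (log2FC 0.88 ± 0.06, FDR = 1.68e-15), with no overlap. *Cd80* went from 8.49 to 10.9 mean FPKM (log2FC 0.37, called) and *Cd86*, the other ligand of CD28, was not called (log2FC −0.04 ± 0.14, FDR = 0.9). *Sirpa*, the receptor of the signal against engulfment and the most abundant, had 125, 122 and 125 FPKM with LPS against 130, 125 and 130 FPKM with PIC (log2FC 0.06 ± 0.02, FDR = 0.228). *Cd48* was called lower on 19, 13 and 17 counts with LPS and 2, 9 and 5 with PIC (log2FC −1.43 ± 0.47, FDR = 0.033). This call was lost in 4 of 13 alternatives.

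Scavenger, Fc and adhesion receptors had 14 of 31 called higher, 3 lower and 14 not (median log2FC 0.22), beside 11.9% higher and 8.39% lower over all genes tested. With total library size they were 11 and 8. The adenosine receptors *Adora2a* and *Adora2b*, which restrain inflammation, were low and higher with PIC: *Adora2a* had 0.117, 0.216 and 0.447 FPKM with LPS against 0.893, 0.873 and 0.814 FPKM with PIC (log2FC 1.71 ± 0.47, FDR = 6.26e-04), and *Adora2b* went from 4.42 to 8.67 mean FPKM (log2FC 0.97, called). *C5ar1*, the receptor of complement C5a, went from 25.7 to 47.9 (log2FC 0.90, called), and the adhesion molecule *Icam1* from 20 to 33.1 (log2FC 0.73, called). *Trem2*, a lipid receptor of macrophages, was lower, at 29, 28.7 and 30.2 FPKM with LPS against 22.5, 24 and 23.3 FPKM with PIC (log2FC −0.33 ± 0.03, FDR = 9.65e-07), and both groups lay below the control mean of 53. *Itgb2*, the common leukocyte integrin chain and the most abundant, was not called (135, 135 and 140 FPKM with LPS against 133, 135 and 128 FPKM with PIC, log2FC −0.05 ± 0.03, FDR = 0.425).

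Genes of apoptosis, necroptosis and the inflammasome had 15 of 35 called higher, 2 lower and 18 not. Beside these stood 11.9% higher and 8.39% lower over all genes tested. The list's median log2FC of 0.10 was 0.02 with total library size, which gave 4 lower. *Fas*, a death receptor, was measured at 5.31, 4.53 and 4.75 FPKM after LPS + TBHQ and 10.1, 10.8 and 12.3 FPKM after PIC + TBHQ (log2FC 1.19 ± 0.11, FDR = 4.79e-11). *Nlrp3*, the sensor of an inflammasome, went from 48.8 to 101 mean FPKM (log2FC 1.05, called) and *Mlkl*, the effector of necroptosis, from 37.1 to 47.3 (log2FC 0.35, called). *Mcl1*, a survival gene and the most abundant of the list, had 146, 140 and 144 FPKM with LPS against 196, 192 and 199 FPKM with PIC (log2FC 0.45 ± 0.02, FDR = 4e-14), *Birc3* went from 12.2 to 18.8 mean FPKM (log2FC 0.63, called) and *Cflar*, an inhibitor of caspase-8, from 18.4 to 24.8 (log2FC 0.43, called). *Bcl2*, another survival gene, was lower, at 2.03, 1.95 and 1.97 FPKM with LPS against 1.24, 1.73 and 1.42 FPKM with PIC (log2FC −0.44 ± 0.14, FDR = 0.0011).

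Cell cycle genes gave the most uniform difference downwards. Of 32 genes of the G1/S transition and DNA replication, 0 were called higher, 30 lower and 2 not, and of 30 genes of mitosis and G2/M, 0 were called higher, 29 lower and 1 not, beside 8.39% called lower over all genes tested. The median log2FC was −0.50 in each list. *Cdc6*, which loads the replicative helicase, was measured at 10.3, 11.3 and 10.2 FPKM after LPS + TBHQ and 6.46, 6.06 and 6 FPKM after PIC + TBHQ (log2FC −0.78 ± 0.06, FDR = 4.81e-12). *Ccna2*, the S and G2 phase cyclin, was measured at 11.7, 13.1 and 13.7 FPKM after LPS + TBHQ and 8.2, 7.22 and 7.3 FPKM after PIC + TBHQ (log2FC −0.76 ± 0.09, FDR = 4.46e-12). *Pcna*, the sliding clamp of DNA polymerase, was measured at 95.7, 96.3 and 101 FPKM after LPS + TBHQ and 71.5, 72.8 and 75.6 FPKM after PIC + TBHQ (log2FC −0.41 ± 0.03, FDR = 4.84e-09), with 19.1% of its stretches found in other genes. In all 3 genes every PIC + TBHQ sample lay below every LPS + TBHQ sample.

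Subunits of the replicative helicase were lower together: *Mcm5* went from 46.6 to 30.9 mean FPKM (log2FC −0.59), *Mcm7* from 25.5 to 16.1 (log2FC −0.66, with 18.1% of its stretches shared) and *Mcm10*, a factor of its activation, from 7.51 to 4.52 (log2FC −0.73), all called. *Rrm2*, a subunit of ribonucleotide reductase, went from 50 to 29.4 (log2FC −0.76, called), and *Top2a*, a topoisomerase of dividing cells, from 22.8 to 13.7 (log2FC −0.73, called). *Gins2*, of the helicase complex, had the smallest called difference of the replication list (log2FC −0.33 ± 0.07, FDR = 0.002, with 67.3% of its exon bases under a gene of the opposite strand) and *Cdc20*, which activates the anaphase-promoting complex, that of the mitosis list (log2FC −0.32 ± 0.08, FDR = 1.57e-04, with 10.4% of its stretches shared). *Cdt1*, *Ccnd2* and *Ccnb2* were not called. Against the control, the median log2FC of the mitosis list was −1.21 in LPS + TBHQ and −1.74 in PIC + TBHQ, and that of the replication list was −0.21 and −0.72, values that share the control samples.

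The 15 called genes with the lowest log2FC were chosen with a mean of at least 50 counts and no overlap between the groups. *Neil3*, a DNA glycosylase of replicating cells, was measured at 2.13, 2.28 and 2.06 FPKM after LPS + TBHQ and 0.985, 1.05 and 1.02 FPKM after PIC + TBHQ (log2FC −1.08 ± 0.05, FDR = 8.19e-09). *Knl1*, a kinetochore scaffold, was measured at 3.81, 4.12 and 3.88 FPKM after LPS + TBHQ and 1.8, 1.99 and 2.19 FPKM after PIC + TBHQ (log2FC −0.98 ± 0.09, FDR = 2.58e-12), and *Ndc80*, which binds microtubules at the kinetochore, at 3.83, 4.17 and 4.06 FPKM after LPS + TBHQ and 2.24, 2.18 and 2.08 FPKM after PIC + TBHQ (log2FC −0.89 ± 0.05, FDR = 1.21e-10). In these 3 genes the PIC + TBHQ samples lay near the middle between 0 and the LPS + TBHQ samples. The centromere genes *Cenpu*, *Cenpk* and *Oip5* had log2FC −0.94 ± 0.12, FDR = 9.27e-05, −0.92 ± 0.09, FDR = 6.49e-05 and −0.93 ± 0.13, FDR = 6.21e-05, and 26.7% of the exon bases of *Cenpu* lie under a gene of the opposite strand. *Rad51ap1*, a gene of recombination repair, and *Fancb*, of the Fanconi anaemia complex, had log2FC −0.91 ± 0.16, FDR = 7.55e-08 and −0.90 ± 0.13, FDR = 1.43e-05. *Ankle1*, an endonuclease, and *Nemp2*, of the nuclear envelope, had log2FC −0.94 ± 0.15, FDR = 3.59e-07 and −0.96 ± 0.17, FDR = 0.0011.

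*Ttc39a*, a tetratricopeptide repeat gene, had the lowest value of these 15 genes, 1.35, 1.15 and 0.883 FPKM with LPS against 0.451, 0.56 and 0.407 FPKM with PIC (log2FC −1.26 ± 0.22, FDR = 5.53e-06). *Id3*, an inhibitor of basic helix-loop-helix factors, had 5.81, 6.62 and 8.37 FPKM with LPS against 3.56, 3.5 and 3.93 FPKM with PIC (log2FC −0.92 ± 0.16, FDR = 1.07e-06), and *Avil*, an actin-binding protein of the villin family, had 1.78, 1.51 and 1.71 FPKM with LPS against 0.824, 0.849 and 0.844 FPKM with PIC (log2FC −0.98 ± 0.07, FDR = 9.83e-05). *Hdac9*, a class IIa histone deacetylase, had 0.524, 0.527 and 0.668 FPKM with LPS against 0.246, 0.28 and 0.395 FPKM with PIC (log2FC −0.89 ± 0.23, FDR = 1.86e-04), and *Gemin8*, of the SMN complex, had 1.27, 1.99 and 2.08 FPKM with LPS against 1.23, 0.792 and 0.802 FPKM with PIC (log2FC −0.91 ± 0.30, FDR = 0.005), with 11.1% of its stretches shared.

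Sterol and fatty acid synthesis had 3 of 31 called higher, 6 lower and 22 not, beside 11.9% higher and 8.39% lower over all genes tested (median log2FC −0.06, and 14 lower with total library size). *Scd2*, a desaturase and the most abundant, had 201, 210 and 202 FPKM with LPS against 180, 180 and 176 FPKM with PIC (log2FC −0.19 ± 0.02, FDR = 9.09e-06), *Elovl6*, an elongase, had 6.38, 6.59 and 6.53 FPKM with LPS against 5.1, 5.47 and 5.48 FPKM with PIC (log2FC −0.28 ± 0.04, FDR = 7.4e-04) and *Insig2*, which holds back sterol regulation, had 7.28, 6.48 and 6.79 FPKM with LPS against 9.11, 7.44 and 7.72 FPKM with PIC (log2FC 0.24 ± 0.10, FDR = 0.031, lost in 7 of 15 alternatives). Of LXR and PPAR targets and lipid handling genes, 7 of 22 were called higher, 1 lower and 14 not, beside 20.2% called in either direction over all genes tested, and 2 were lower with total library size. *Acsl1*, which activates fatty acids, had 6.52, 6.9 and 6.8 FPKM with LPS against 9.97, 10.3 and 9.71 FPKM with PIC (log2FC 0.57 ± 0.03, FDR = 2.85e-12), *Lipa*, the lysosomal lipase, had 99.2, 102 and 105 FPKM with LPS against 90.6, 89.8 and 94.6 FPKM with PIC (log2FC −0.15 ± 0.03, FDR = 0.0024), and *Gpnmb*, the most abundant, was not called (log2FC 0.06 ± 0.02, FDR = 0.251).

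Glycolysis and hypoxia genes had 18 of 26 called higher, 0 lower and 8 not, beside 11.9% and 8.39% over all genes tested. The list's median log2FC was small, at 0.17, and 11 members were higher with total library size. *Adm*, the peptide adrenomedullin, had 0.406, 0.632 and 0.528 FPKM with LPS against 1.53, 1.22 and 0.885 FPKM with PIC (log2FC 1.21 ± 0.27, FDR = 0.0098). The call was lost in 2 of 14 alternatives. *Slc2a1* (GLUT1), the glucose importer, went from 136 to 184 mean FPKM (log2FC 0.43, called), and *Hk3*, a hexokinase, had the smallest called difference (log2FC 0.09 ± 0.01, FDR = 0.046), which was lost in 12 of 15 alternatives. *Pkm*, pyruvate kinase, had log2FC 0.08 ± 0.02, FDR = 0.059, with 25.8% of its stretches shared. *Gapdh*, often used as a reference gene, had 10.3, 45.4 and 28.6 FPKM with LPS against 12.6, 56.1 and 67.4 FPKM with PIC (log2FC 0.69 ± 0.99, FDR = 0.365), and this spread between replicates, with 24.7% of its stretches shared with other genes, makes its level uncertain here. *Actb*, the other common reference gene, was itself called higher, at 1802, 1730 and 1764 FPKM with LPS against 2097, 1905 and 1992 FPKM with PIC (log2FC 0.18 ± 0.04, FDR = 1.52e-04).

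Housekeeping groups had medians near 0, and their counts changed with the scaling. Over all genes tested, 11.9% were called higher and 8.39% lower. The TCA cycle and respiratory chain had 6 of 39 called higher and 0 lower, and 0 higher and 7 lower with total library size. *Cox4i1*, a subunit of complex IV, had log2FC 0.15 ± 0.01, FDR = 0.0025 (lost with total library size), the mitochondrial *mt-Cytb* had log2FC 0.09 ± 0.01, FDR = 0.025 (lost in 9 of 15 alternatives), and *mt-Co1*, the most abundant, was not called (log2FC 0.06 ± 0.02, FDR = 0.203, with 51.1% of its stretches shared). Cytosolic ribosomal proteins had 10 of 46 called higher and 0 lower, against 0 and 1 with total library size. *Rplp2* had log2FC 0.15 ± 0.02, FDR = 0.01 (lost in 4 of 15 alternatives), *Rpl4* had log2FC 0.08 ± 0.03, FDR = 0.041 (lost in 11 of 15 alternatives), and *Rplp1*, the most abundant, was not called (log2FC 0.10 ± 0.04, FDR = 0.081), with 18.3%, 15.2% and 60% of their stretches shared. Lysosome and autophagy genes had 13 of 31 called higher and 0 lower, against 4 and 2 with total library size. *Mitf*, a factor that drives lysosomal genes, had log2FC 0.36 ± 0.04, FDR = 1.01e-06, *Atp6v1a*, of the proton pump, had log2FC 0.09 ± 0.01, FDR = 0.024 (lost in 6 of 15 alternatives), and *Ctsd*, the most abundant protease, was not called (log2FC 0.04 ± 0.03, FDR = 0.395, with 32.4% of its stretches shared). Of 16 clock genes, 2 were called higher and 0 lower, and 2 and 4 with total library size. The 2 were the repressors *Bhlhe40* and *Bhlhe41* (log2FC 0.35 ± 0.08, FDR = 3.53e-05 and 0.35 ± 0.02, FDR = 1.76e-05), and *Per1* was not called (log2FC 0.11 ± 0.03, FDR = 0.116).

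The same stimulus contrast without TBHQ shares no sample with the one above. There, PIC against LPS gave 3787 genes called (27.7%), 2035 higher (14.9%) and 1752 lower (12.8%), and its median log2FC moved by −0.13 with total library size. Of the 1623 genes called higher after TBHQ, 1185 were also called higher without it (73.0% of the former and 58.2% of the 2035), and 2 were called in the opposite direction. Of the 1149 called lower, 731 were also called lower without TBHQ (63.6%, and 41.7% of the 1752), and 3 were opposite. Past a |log2FC| of 1 after TBHQ the 2 directions differed. There, 109 of the 141 higher genes (77.3%) were also called higher without TBHQ, but only 6 of the 39 lower genes (15.4%) were also called lower. Over the 13691 genes, the log2FC with and without TBHQ had a Pearson correlation of 0.55, given as a description.

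Whether a stimulus difference had another size after TBHQ was tested as an interaction, the difference between the 2 log2FC. It was called in 251 genes (1.83%), 113 higher (0.825%) and 138 lower (1.01%). This count depends on the analysis: it was 160 to 354 with 1 sample left out and 403 under DESeq2, and total library size gave 235 higher and 74 lower. In the antiviral list it was called higher in 26 of 51 genes and lower in 0, and in the GTPases in 5 of 14 and 0. *Zbp1* had log2FC 0.40 without TBHQ and 1.45 with it (interaction 1.05, adjusted p = 3.9e-11), and *Irf7* had 0.21 and 0.84 (interaction 0.63, adjusted p = 3.59e-10). *Ifit3* had 0.82 and 2.14 (interaction 1.32, adjusted p = 6e-07), *Gbp2b* had 0.67 and 2.00 (interaction 1.33, adjusted p = 2.33e-05), and *Apol9b*, an apolipoprotein L gene that shares 52.3% of its stretches with *Apol9a* and others, had 0.27 and 1.58 (interaction 1.32, adjusted p = 0.0022). In these antiviral genes PIC and LPS were further apart after TBHQ than without it. The same was measured for *Ccl5* (interaction 0.62, adjusted p = 1.94e-06), *Rsad2* (interaction 0.69, adjusted p = 3.65e-07), *Ifit1* (interaction 0.54, adjusted p = 7.6e-04) and *Isg15* (interaction 0.46, adjusted p = 1.24e-04), and for *Serpinb2* (interaction 1.31, adjusted p = 2.97e-04), whose interaction was −0.02 under limma on log2(FPKM + 1).

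In some inflammatory genes the interaction had the other direction. It was lower in 6 of 24 NF-κB genes and in 4 of 30 inflammatory enzymes and effectors, with 2 of 23 cytokines, and higher in 0, 1 and 0. Over all genes tested 1.01% were lower and 0.825% higher. Other lists had lower interactions too. These were 3 of 32 replication genes, 3 of 35 genes of apoptosis, necroptosis and the inflammasome, and 2 of 10 CC chemokines, with 0, 0 and 1 higher. *Tnf* had log2FC 1.10 without TBHQ and 0.52 with it (interaction −0.58, adjusted p = 1.76e-08), *Cxcl2* had 0.90 and 0.36 (interaction −0.54, adjusted p = 5.11e-04), and *Ptgs2* had 1.55 and 1.13 (interaction −0.42, adjusted p = 1.35e-04). For these genes PIC stayed above LPS in both settings and the distance was smaller after TBHQ. *Mmp12* showed a larger one, from 2.22 to 0.83 (interaction −1.39, adjusted p = 3.05e-06). *Slamf7*, a receptor of the SLAM family, had 0.90 without TBHQ and −0.03 with it (interaction −0.93, adjusted p = 0.015), and *Ppm1k*, a mitochondrial phosphatase, had 0.92 and 0.17 (interaction −0.75, adjusted p = 0.0049). *Lox*, lysyl oxidase, was lower with PIC only after TBHQ, from 0.00 to −1.03 (interaction −1.03, adjusted p = 0.042), and the call of its interaction was lost in many of the alternatives. *Cxcl10* (2.72 and 2.60) and *Lif* (2.70 and 2.46) had no called interaction. *Gm4786* (interaction 1.56, adjusted p = 0.046) and *Gm10123* (interaction −1.43, adjusted p = 3.6e-04) share 70% and 100% of their stretches with *Rpl7a* and *Ppia* and others, so their counts are uncertain.

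**Figure D4:**
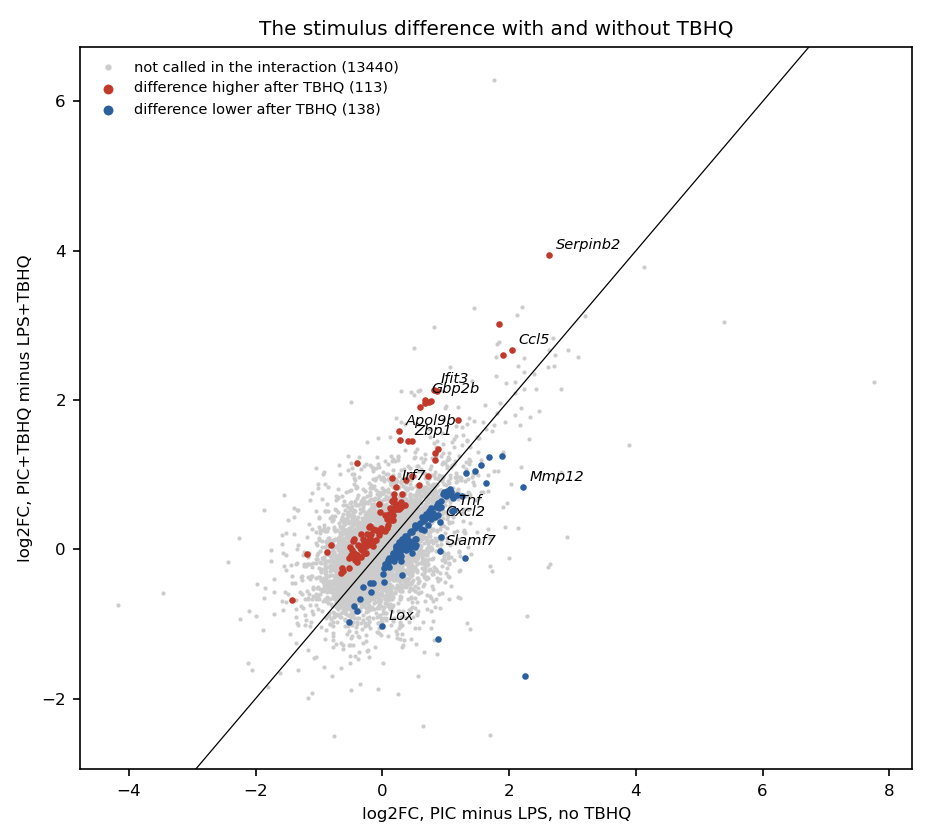
Each point is 1 gene tested, with the log2FC of PIC over LPS without TBHQ on the horizontal axis and after TBHQ on the vertical axis. The diagonal marks equal values. Red and blue points were called in the interaction as higher or lower after TBHQ.

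Since antiviral interferon-stimulated genes were higher together, promoters were searched for 3 short motifs. Windows from 250 bases before to 50 after the start of transcription, taken from RefSeq on GRCm38.p6, were found for 102 of the 141 genes called higher past a |log2FC| of 1 (131 windows), for 21 of the 39 called lower (30 windows) and for 9560 of the 13691 tested (12150 windows). GAAANNGAA, the core of the interferon-stimulated response element, stood on either strand in 26.7% of the windows of genes called higher, 6.67% of those called lower and 7.32% of all. GGANTTTCC, an NF-κB motif, stood in 10.7%, 0% and 1.36%. TGACNNNGC, the core of the antioxidant response element, stood in 19.1% and 13.3% and, over all windows, 1751 of 12150. A match describes letters and not a bound site.

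Of the 15 genes with the highest log2FC, 13 had a window, and the 3 with the highest values among those with a motif are shown, as the promoters of the genes that set the 2 stimuli apart. Each sequence is the 250 bases before the start from RefSeq, read 5′ to 3′ on the strand of the gene, with every motif match in capitals. All matches shown but GAAAGTGAA in *Cxcl10* are in reverse, the reverse complement of the motif as written above. *Gbp5* (chr3:142496684-142496933, + strand) holds TTCAATTTC, the element core in reverse, 164 bases and GGAAATTCC 77 bases before the start. *Rsad2* (chr12:26456453-26456702, − strand) holds TTCATTTTC at 119 bases and GCAGCGTCA, the antioxidant core in reverse, at 231 bases. *Cxcl10* (chr5:92348890-92349139, − strand) holds GAAAGTGAA at 213 bases, GGAAATTCC at 158 bases and GCTGAGTCA at 76 bases.
Gbp5: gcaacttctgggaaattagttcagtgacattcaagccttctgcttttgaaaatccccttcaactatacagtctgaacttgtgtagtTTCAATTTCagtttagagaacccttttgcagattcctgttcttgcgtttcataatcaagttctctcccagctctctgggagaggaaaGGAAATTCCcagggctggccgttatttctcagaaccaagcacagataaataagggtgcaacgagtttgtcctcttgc
Rsad2: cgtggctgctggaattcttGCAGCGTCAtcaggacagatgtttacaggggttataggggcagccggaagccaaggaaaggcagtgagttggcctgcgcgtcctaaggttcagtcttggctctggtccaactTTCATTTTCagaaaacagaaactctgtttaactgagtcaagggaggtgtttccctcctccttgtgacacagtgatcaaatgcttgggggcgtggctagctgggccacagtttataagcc
Cxcl10: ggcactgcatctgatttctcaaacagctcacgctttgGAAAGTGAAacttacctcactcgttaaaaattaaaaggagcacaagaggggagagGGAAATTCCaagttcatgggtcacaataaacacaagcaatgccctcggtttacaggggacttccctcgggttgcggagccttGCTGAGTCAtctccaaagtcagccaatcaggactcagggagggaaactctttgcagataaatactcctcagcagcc

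The calls rest on 3 samples against 3 of 1 cell line, at 1 dose and 1 time of each stimulus. Differences with a |log2FC| under about 0.1 depend on the scaling of the libraries.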

How the data were processed

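RNA of 18 samples (6 groups of 3) of RAW 264.7 cells was sequenced by the authors as poly(A) libraries. These are described both as directional and as non-directional, so for genes under a gene of the opposite strand it is uncertain which of them was counted. Besides the genes marked above, such overlap covers 26.5% of the exon bases of *Ftl1*, 22.1% of *Dusp5*, 20.7% of *Cebpb* and 19% of *Bhlhe41*. It covers 18.1% of *Nfkb2*, 14.1% of *Cd274* and 13.6% of *G6pdx*, and further named genes are affected. The counts per gene were made by the authors with HISAT2 2.0.5, StringTie 1.3.3b and featureCounts 1.5.0-p3 and are deposited as whole numbers. The FPKM were computed by the authors from such counts with 1 further constant per sample, and were used here for levels and for 2 alternatives. The build is named by the authors as both GRCm38 and mm39, and promoter positions here are those of GRCm38.p6.

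Counts were analysed with edgeR 4.0.16 in R 4.3.3: genes were filtered on expression (13691 of 56748 tested), scaled by TMM, and fitted with 1 coefficient per group over all 18 samples, with quasi-likelihood tests of PIC + TBHQ against LPS + TBHQ, PIC against LPS, and their interaction, adjusted over all genes tested (Benjamini-Hochberg). The log2 CPM values behind the SE used a prior count of 2, which was not applied to the log2FC. At 14934775 to 17533571 counts per sample, the median SD of log2 CPM between replicates was 0.084 in LPS + TBHQ and 0.0878 in PIC + TBHQ, and 81 members of the gene lists had too few counts for a test. The test script was first tested on simulated data.

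The members of this comparison and the gene lists were chosen with earlier results of these data known, the lists from general knowledge. Genes named are the 15 highest and 15 lowest called genes with a mean of at least 50 counts and no overlap, the highest and lowest called and the most abundant member of each list, 42 fixed genes, and the 5 highest and 5 lowest called genes of the interaction among those with a mean of at least 50 counts over the 12 stimulated samples. Other members of the lists were named after their values were seen, and some single genes are not reported here. Shared sequence is the percent of a gene's stretches of 50 bases in annotated transcripts that also occur in another gene. Alternatives were DESeq2 1.42.0, limma 3.58.1 on log2 FPKM with 1 or 0.1 added, other scalings and filters, fewer groups or samples, a block of replicate numbers, and stricter limits. Tables and figures were made in Python 3.11.15 with pandas 2.3.3, numpy 2.4.6, scipy 1.17.1 and matplotlib 3.10.9.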

Additional observations from a re-analysis of the deposited data

Results flagged for a closer look

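A difference between groups set these results apart: in 251 genes the PIC against LPS difference was of another size after TBHQ than without it, by the test of the interaction (113 higher and 138 lower, but 235 higher and 74 lower with total library size). Among the named genes the interaction, the log2FC of PIC over LPS after TBHQ minus that without it, was positive in *Gm4786* 1.56, *Gbp2b* 1.33, *Ifit3* 1.32, *Apol9b* 1.32, *Serpinb2* 1.31, *Ifit3b* 1.22, *Gbp5* 1.19, *Zbp1* 1.05, *Rsad2* 0.69, *Irf7* 0.63, *Ccl5* 0.62, *Ifit1* 0.54, *Isg15* 0.46 and *Cd74* 0.26. It was negative in *Gm10123* −1.43, *Mmp12* −1.39, *Lox* −1.03, *Slamf7* −0.93, *Ppm1k* −0.75, *Tnf* −0.58, *Cxcl2* −0.54, *Knl1* −0.45, *Ptgs2* −0.42, *Csf3* −0.40, *Ccl3* −0.35, *Mki67* −0.32, *Slc7a11* −0.31, *Ccl4* −0.30, *Nfkbia* −0.27, *Prdx1* −0.24, *Nfkb1* −0.22, *Clec4d* −0.19 and *mt-Cytb* −0.17. A negative value was a smaller difference in most of these, but in *Lox*, *Knl1* and *Mki67* PIC lay further below LPS after TBHQ. *Gm4786* and *Gm10123* share most of their sequence with other genes, and the calls of *Gm4786* and *Lox* were lost in many of the alternatives. The values are measurements, and the cause was not tested.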

How the results depend on the processing

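The 2772 genes called in PIC + TBHQ against LPS + TBHQ were 2414 to 3472 under other tests, scalings, filters and sample sets, and 2185 to 2439 with a sample left out, which leaves fewer samples. Total library size gave 890 higher and 2582 lower, since it shifts all log2FC down, and 165 list members lower in place of 94. With total library size *Hspa5* (−0.0811) and *Rpl4* (−0.0020) turned, where 1 of the 2 values was called. Over 152 named genes, 11 had the other sign with total library size, 4 with a sample left out and 1 in other settings, 13 in all, and apart from *Rpl4* none of these was called at first. The call was lost in at least 1 setting in 26 named genes and in at least 5 settings in 11. Past a |log2FC| of 1 there were 180 genes (141 higher, 39 lower), and with an FDR below 0.01 and a |log2FC| above 2 there were 34 (34 higher, 0 lower). For PIC against LPS these limits gave 252 (190 and 62) and 42 (40 and 2), and total library size gave 985 higher and 4373 lower.

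For its size, the total count of the interaction varied most under other tests, scalings, filters and sample sets. Its 251 genes (113 higher, 138 lower) were 403 under DESeq2 (282 lower), 380 with no filter beyond 1 count (237 lower), 147 under limma on log2(FPKM + 0.1) (56 higher, 91 lower), with 62 higher under limma on log2(FPKM + 1) and 235 higher and 74 lower with total library size. Past a |log2FC| of 1 there were 19 (14 and 5) and past the stricter limits 0 (0 and 0). Leaving out 1 sample gave 160 to 354 in all, 72 to 115 higher and 86 to 239 lower. The interaction of *Serpinb2* was −0.0165 under limma on log2(FPKM + 1), where low FPKM are compressed. For the differences between tests the cause was not tested.

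Replicate numbers are not stated to pair samples. With replicate number as a block, 2833 genes were called (1665 higher, 1168 lower), 3836 for PIC against LPS and 274 for the interaction. The residuals of same-numbered samples correlated at −0.04 to 0.02, and 2 of 6 samples correlated best with their own number. Depth limits genes of few counts, such as the interferons.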
